A study of Mus musculus with 4 samples.

Results

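The cells described here are T cells from pancreatic islets in which 2 productive T-cell receptor beta chains (TRB) were read from 1 cell barcode. They were chosen as barcodes flagged as cells in the deposited contig tables that carried at least 2 TRB contigs, each also flagged high-confidence, full-length and productive (in frame, with no stop codon). There were 652 such cells among 13345 called cells, or 4.89%, and another 12405 called cells carried 1 such TRB and 288 carried none. No called cell carried more than 2. Their identity as T cells rests on receptor contigs alone: all 652 also carried at least 1 productive alpha chain (TRA), and no other transcript was analysed here.

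The receptors came from 4 single-cell libraries of islet cells, 2 from NOD (non-obese diabetic) mice, in which autoimmune diabetes arises on its own, and 2 from Tet2KO NOD mice. Female NOD mice, for the crosses or as bone marrow donors, were bought from The Jackson Laboratory. The Tet2KO animals descended from Tet2-/- male breeders on the B6 background, crossed to NOD females for over 14 generations. The deletion is thus not limited to T cells. Tet2 is an enzyme that oxidises methylcytosine in DNA, and its level was not analysed here. Each library held pooled islets of 4 to 6 mice, so the pool is the replicate and a receptor shared by several cells may come from more than 1 mouse. The mice are described in one place as 10 to 13 weeks old and in another as that many weeks after an event abbreviated BTM. Donors for bone marrow transplant are also mentioned, and whether these mice were transplanted was not settled here. Within a genotype, the libraries are numbered set 1 and set 2.

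A beta chain is built by joining a variable (V), a diversity (D) and a joining (J) segment, with bases trimmed and added at the joints, in the stretch called CDR3. Each T cell has a copy of the TRB locus on either chromosome. Once a productive TRB is made, signalling through the pre-T-cell receptor usually stops rearrangement of the other copy, which is called allelic exclusion. The TRA locus is not held to 1 chain in this way, and T cells with a pair of productive TRA are common. A barcode with 2 productive TRB can therefore stand for 1 cell with both copies productive (allelic inclusion), for 2 cells caught in 1 droplet (a doublet), or for 1 cell with a transcript from elsewhere. Measures that bear on these are the number of TRA, the balance of unique molecular identifiers (UMIs, 1 per captured transcript) between the TRB, and whether the same pair is found in several cells.

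The CDR3 sequences below belong to the most frequent TRB pair of each library, to the next 2 pairs of NOD 1, and to a TRB of NOD 1 that was found beside several different partners. They are shown because the results on recurrence turn on them. Each is read from the deposited tables, 5′ to 3′. Capitals mark the bases between the part that follows the commonest CDR3 start of its V segment and the part that follows the commonest CDR3 end of its J segment in these libraries. They hold bases from the D segment or added at the joints, and can also hold V or J bases that depart from that commonest start or end.
NOD 1, first pair in 28 cells, TRBV3 TRBJ1-3: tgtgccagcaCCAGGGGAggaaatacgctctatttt
NOD 1, first pair in 28 cells, TRBV3 TRBJ2-1: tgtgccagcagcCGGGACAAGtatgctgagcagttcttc
NOD 1, next pair in 26 cells, TRBV15 TRBJ2-7: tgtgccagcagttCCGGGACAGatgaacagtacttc
NOD 1, next pair in 26 cells, TRBV31 TRBJ2-2: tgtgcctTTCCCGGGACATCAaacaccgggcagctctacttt
NOD 1, pair in 13 cells, TRBV1 TRBJ2-3: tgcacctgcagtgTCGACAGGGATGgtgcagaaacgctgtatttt
NOD 1, pair in 13 cells, TRBV3 TRBJ1-4: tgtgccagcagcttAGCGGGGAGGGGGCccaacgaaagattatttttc
NOD 2, pair in 5 cells, TRBV12-2+TRBV13-2 TRBJ2-7: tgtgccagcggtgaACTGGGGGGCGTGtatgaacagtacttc
NOD 2, pair in 5 cells, TRBV2 TRBJ2-5: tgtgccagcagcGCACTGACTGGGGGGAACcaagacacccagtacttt
Tet2KO NOD 1, pair in 7 cells, TRBV13-1 TRBJ1-1: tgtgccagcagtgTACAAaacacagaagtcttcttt
Tet2KO NOD 1, pair in 7 cells, TRBV13-1 TRBJ1-1: tgtgccagcagtgGAGGGgaagtcttcttt
Tet2KO NOD 2, pair in 3 cells, TRBV31 TRBJ2-3: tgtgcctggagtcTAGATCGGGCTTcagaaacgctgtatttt
Tet2KO NOD 2, pair in 3 cells, TRBV5 TRBJ2-5: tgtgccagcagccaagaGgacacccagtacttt
NOD 1, beside 6 partners, TRBV16 TRBJ1-4: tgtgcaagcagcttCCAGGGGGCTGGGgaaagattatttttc

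The contig tables held between 85137263 and 220516119 reads per library, and 1664 to 6835 called cells. In all, 81 barcodes were called as cells in more than 1 library, and 8 of the 652 cells with 2 TRB carried such a barcode. NOD 1 stood apart in size, with 393 of the 652 cells, so values are given per library. Over the 7 comparisons made across libraries, p-values were adjusted by Benjamini-Hochberg. The design bounds them: the exact permutation of 2 libraries against 2 cannot go below p = 0.333, and the exact sign change of 4 within-library differences cannot go below p = 0.125. The labels do not say that the pools were made independently, so these p-values measure only the spread between libraries.

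The first comparison asked whether cells with 2 TRB made up a different share of T cells in the genotypes. NOD 1 had 393 of 6835 called cells with 2 TRB, or 5.75% (95% Wilson interval 5.22 to 6.33%, which covers counting error only, as do all intervals here). NOD 2 had 127 of 2889, or 4.40% (3.71 to 5.21%). Tet2KO NOD 1 had 66 of 1957, or 3.37% (2.66 to 4.27%), and Tet2KO NOD 2 had 66 of 1664, or 3.97% (3.13 to 5.02%). Both NOD libraries lay above both Tet2KO NOD libraries, though the intervals of NOD 2 and of both Tet2KO NOD libraries overlapped. NOD had a mean of 5.07% ± 0.957 and Tet2KO NOD one of 3.67% ± 0.420 (SD, n = 2 each), a difference of -1.40 percentage points (exact permutation p = 0.333, adjusted p = 0.583). The difference was -0.727 points without NOD 1, -0.740 points when only cells whose TRB pair was found once were counted, and -0.799 points when only pairs with different V segments were.

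A TRB can be missed where few UMIs were captured, so every cell was also thinned to 10 TRB UMIs by exact expectation, which left out 3072, 1023, 980 and 724 cells of NOD 1, NOD 2, Tet2KO NOD 1 and Tet2KO NOD 2. The share of cells showing 2 TRB at that depth was 8.98, 6.10, 6.01 and 6.16%. NOD 1 was the highest at that depth too, and the other 3 libraries lay between 6.01 and 6.16%. Cells were kept by their summed TRB UMIs, which were higher in cells with 2 TRB, so this filter keeps a larger share of those cells. Thinned to 5 TRB UMIs, the shares were 5.64, 4.21, 3.63 and 4.22%, with 1173, 355, 388 and 276 cells left out.

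At the threshold of the rule, 14 cells were included with 1 UMI for the second TRB (the TRB with fewer UMIs; ties were ordered by reads), 12 of them in NOD 1 and 2 in Tet2KO NOD 1. Just outside it, 1454 cells with 1 productive TRB also carried a nonproductive TRB contig. Barcodes that were not called as cells were not counted, but the tables list them. Of uncalled barcodes with a TRB, 504 of 2889 in NOD 1 (17.4%), 93 of 1520 in NOD 2 (6.12%), 49 of 1666 in Tet2KO NOD 1 (2.94%) and 49 of 1812 in Tet2KO NOD 2 (2.70%) held 2 or more TRB. In 288 uncalled barcodes over the 4 libraries there were 3 or more TRB or 3 or more TRA. All of these uncalled barcodes were counted on productive, full-length contigs, whether or not flagged high-confidence. With that flag required, no called cell reached 3 of either chain. The 288 barcodes are not among the cells described here.

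**Figure D1:**
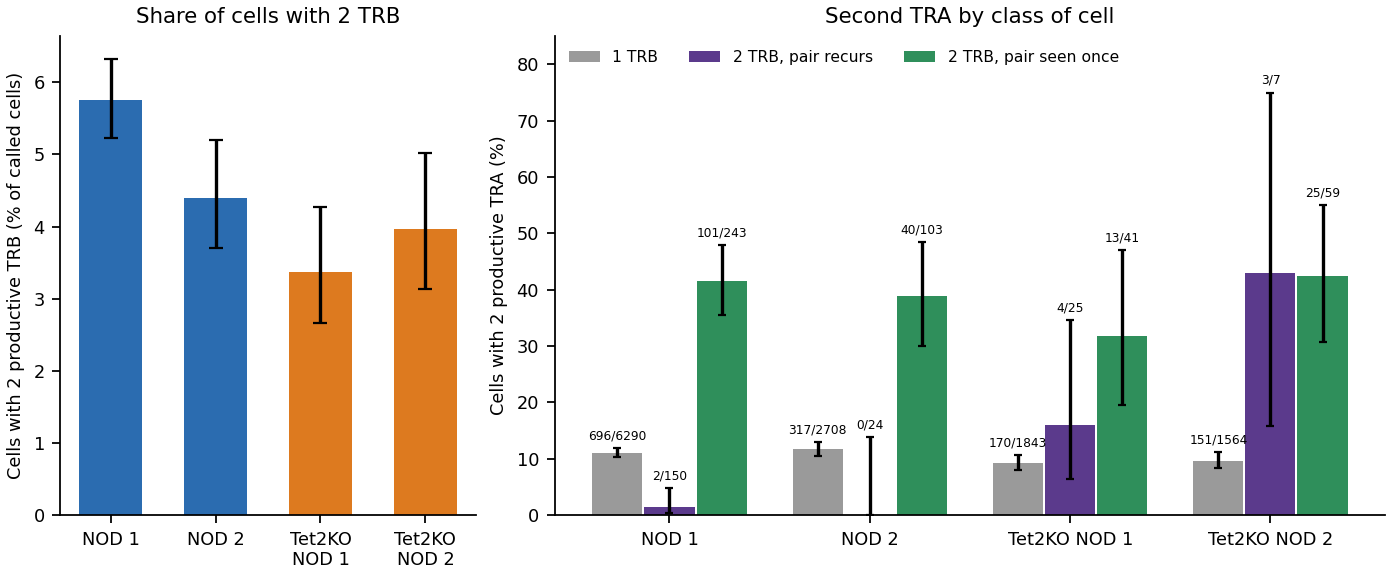
The left panel plots called cells with 2 productive TRB as a percentage of called cells in each library, with NOD in blue and Tet2KO NOD in orange, and the right panel the percentage of cells with 2 productive TRA among cells with 1 TRB (grey), cells whose TRB pair recurs (purple) and cells whose pair was seen once (green). Bars give the percentage, lines the 95% Wilson interval and the fractions the cells behind it; NOD 1 is highest on the left at 5.75%, and cells with a pair seen once lie between 31.7 and 42.4% on the right.

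The number of TRA was the next measure, since the rule did not use it. A pair of productive TRA was present in 103 of 393 cells with 2 TRB in NOD 1 (26.2%), 40 of 127 in NOD 2 (31.5%), 17 of 66 in Tet2KO NOD 1 (25.8%) and 28 of 66 in Tet2KO NOD 2 (42.4%). Among cells with 1 TRB the share was 11.1, 11.7, 9.22 and 9.66% in the same order. Each library thus had more cells with 2 TRA among those with 2 TRB, by 15.1, 19.8, 16.5 and 32.8 percentage points. The mean difference was 21.06 points ± 8.05 (SD, n = 4 libraries, exact sign-change p = 0.125, the smallest possible, adjusted p = 0.438), and it was 7.18 points larger in Tet2KO NOD than in NOD (exact permutation p = 0.667) but -0.933 points, the other way, without Tet2KO NOD 2.

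Cells with no TRA make up part of that gap. None of the 652 cells with 2 TRB lacked a TRA, whereas 11.5, 8.60, 13.0 and 11.0% of cells with 1 TRB did. Among uncalled barcodes with 2 or more TRB, 48, 11, 14 and 20 had no TRA, counted without asking for the high-confidence flag. Whether cell calling shaped the lack of such barcodes among called cells was not tested. Among cells with 1 TRB that had at least 1 TRA, the share with 2 was 12.5, 12.8, 10.6 and 10.8%, so the difference kept its direction in each library. After each cell was thinned to 5 TRA UMIs, the share with 2 TRA was 31.9 against 17.7% in NOD 1, 34.7 against 16.1% in NOD 2, 37.1 against 14.1% in Tet2KO NOD 1 and 50.7 against 14.4% in Tet2KO NOD 2, in cells with 2 TRB against cells with 1. That left out 105, 27, 23 and 15 cells with 2 TRB and 2764, 978, 842 and 625 cells with 1. Summed TRA UMIs, by which cells were kept, were higher in cells with 2 TRA. This filter thus keeps a larger share of cells with 2 TRA in both classes.

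For scale, the number of TRA that 2 cells would bring into 1 droplet can be computed from the cells with 1 TRB of the same library. Summing the TRA of 2 such cells, 77.8, 82.7, 75.7 and 78.9% of the sums of 1 or 2 would be 2. The observed shares, 25.8 to 42.4%, lay between those values and the shares of cells with 1 TRB. The calculation takes cells as paired at random and takes barcodes with 3 or more TRA, or none, as lost; neither assumption was tested.

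The share with 2 TRA differed between cells whose TRB pair recurred (the same V, J and CDR3 nucleotides of both TRB in at least 2 cells of the library) and cells whose pair was found once. In NOD 1, 2 of 150 cells with a recurring pair had 2 TRA (1.33%), against 101 of 243 with a pair seen once (41.6%). NOD 2 had 0 of 24, a count that allows a share of up to 12.5%, against 40 of 103 (38.8%). Tet2KO NOD 1 had 4 of 25 (16.0%) against 13 of 41 (31.7%), and Tet2KO NOD 2 had 3 of 7 (42.9%) against 25 of 59 (42.4%). The 2 NOD libraries showed the gap most widely. Tet2KO NOD 2 showed none, but its 3 cells with a recurring pair and 2 TRA were all of 1 pair. Cells of 1 pair are not independent, so the gap was not tested.

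UMIs give the amount of receptor transcript captured. The TRB UMIs of a cell, summed over both chains, had a median of 24, 28, 23.5 and 23 in cells with 2 TRB of NOD 1, NOD 2, Tet2KO NOD 1 and Tet2KO NOD 2, and of 10, 13, 9 and 11 in cells with 1 TRB. The rule asks for 2 TRB contigs, so this 2.09- to 2.61-fold gap is in part what it selects. The top TRB alone had 1.32 to 1.60 times the UMIs of the TRB in cells with 1.

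TRA UMIs are outside the rule. Their median was 7, 9, 6.5 and 9 per cell with 2 TRB and 5, 6, 5 and 6 per cell with 1 TRB, a ratio of 1.4, 1.5, 1.3 and 1.5. All 4 libraries were higher in cells with 2 TRB, with a mean log2 ratio of 0.51 ± 0.10 (SD, n = 4 libraries, exact sign-change p = 0.125, the smallest possible, adjusted p = 0.438). Against cells with 1 TRB that had at least 1 TRA, whose medians were 6, 7, 6 and 6, the mean log2 ratio was 0.32 (exact sign-change p = 0.125, an alternative chosen after the data were seen). The number of TRA moved with this difference: between cells with exactly 1 TRA the ratios were 1.20, 1.17, 1.00 and 1.00, and the mean log2 ratio was 0.12 (exact sign-change p = 0.5, in an alternative added after the data were seen). In cells whose TRB pair was seen once and that had 2 TRA, the median was 12, 13.5, 16 and 15 TRA UMIs, and in cells with 1 TRB and 2 TRA it was 12, 13, 10.5 and 12. The medians of these classes thus lay close in both NOD libraries and were higher beside 2 TRB in both Tet2KO NOD libraries, on 13 and 25 cells.

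The balance of the TRB was read as the UMIs of the second TRB over those of the top TRB. This ratio is 1 where both have the same UMIs and cannot be higher. Counting error alone therefore puts it under 1, the more so at few UMIs, and the value for equal chains was not computed. The median ratio was 0.5 in NOD 1, 0.520 in NOD 2, 0.556 in Tet2KO NOD 1 and 0.589 in Tet2KO NOD 2. The ratio was at least 0.5 in 52.7, 55.1, 60.6 and 65.2% of cells. Both Tet2KO NOD medians lay above both NOD medians, by a mean of 0.0622 (NOD 0.510 ± 0.0141 and Tet2KO NOD 0.572 ± 0.0236, SD, n = 2 each, exact permutation p = 0.333, adjusted p = 0.583). Among cells whose 2 TRB used different V segments the difference was 0.00498, and among cells whose pair was seen once it was 0.0237 (exact permutation p = 1). Both alternatives were chosen after the data were seen.

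Strongly unbalanced cells were nearly all in 1 library. A ratio under 0.1 was found in 19 cells of NOD 1, 1 of NOD 2, 0 of Tet2KO NOD 1 and 0 of Tet2KO NOD 2. Of these 20 cells, 19 had 2 TRB with the same V segment, and 17 of the 19 in NOD 1 had a recurring pair. None of the 19 cells in NOD 1 had 2 TRA.

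**Figure D2:**
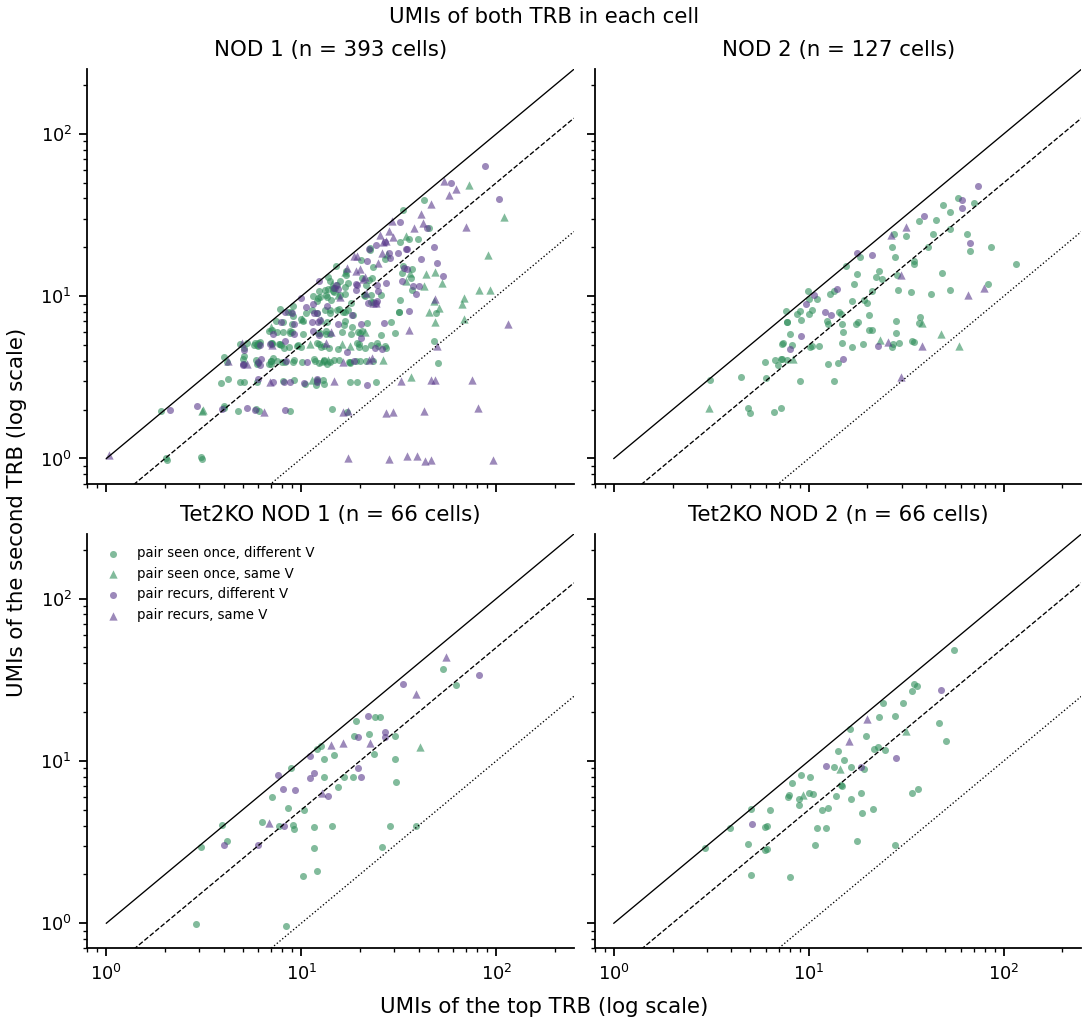
Each point is 1 cell with 2 productive TRB, placed by the UMIs of its top TRB (x, log scale) and of its second TRB (y, log scale) in 1 panel per library; a small random shift separates overlapping points. Colour gives whether the pair recurs (purple) or was seen once (green), triangles are pairs with the same V segment, and the lines mark ratios of 1, 0.5 and 0.1; the points under the lowest line are nearly all purple triangles of NOD 1.

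Recurrence asks whether the same 2 TRB are found together in several cells, as they would be in the descendants of 1 cell. The 652 cells held 496 distinct TRB pairs, of which 50 recurred, in 206 cells. NOD 1 had 31 recurring pairs in 150 of 393 cells (38.2%), and NOD 2 had 9 in 24 of 127 (18.9%). Tet2KO NOD 1 had 7 in 25 of 66 (37.9%), and Tet2KO NOD 2 had 3 in 7 of 66 (10.6%). With pairs told apart by CDR3 nucleotides alone, 1 pair of NOD 1 and 1 of Tet2KO NOD 2 were each listed under 2 segment names. That of NOD 1 counts here as a 4-cell and a 2-cell pair, with the same TRAV14N-2 TRAJ31 chain and the V of 1 TRB named TRBV13-1 in one and TRBV12-2+TRBV13-2 in the other. That of Tet2KO NOD 2 was seen once under either name, and would bring its recurring pairs to 4 in 9 cells (13.6%). The libraries of 1 genotype lay further apart than the genotypes: NOD had a mean of 28.5% ± 13.6 and Tet2KO NOD one of 24.2% ± 19.3 (SD, n = 2 each), a difference of -4.29 points (exact permutation p = 0.667, adjusted p = 0.778). It turned to 5.34 points without NOD 1 and to 9.35 points without Tet2KO NOD 2, and was -13.9 points without NOD 2 and -17.9 without Tet2KO NOD 1. No pair was found in more than 1 library.

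Recurring pairs mostly came with a single TRA. In 48 of the 50 recurring pairs, all cells of the pair shared 1 TRA with the same V, J and CDR3 nucleotides, and these pairs held 191 of the 206 cells. In 45 of the 50 the cells lay in 1 deposited clonotype. Most recurring pairs were small: 29 were found in 2 cells and 21 in 3 or more. The median UMI ratio of a pair was at least 0.5 in 32 of the 50 pairs, and ranged from 0.0237 to 0.905.

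Whether the TRB of a pair were also found apart divides the recurring pairs into 3 kinds. In 22 pairs (70 cells), neither TRB was the only TRB of any other called cell of the library. In 13 pairs, 1 of them was. In 15 pairs (67 cells), both were found alone in other cells. The largest pairs of the first kind were found in 13 cells of NOD 1 and, 2 pairs with 7 cells each, in Tet2KO NOD 1.

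The 13-cell pair of NOD 1 joined TRBV1 TRBJ2-3 to TRBV3 TRBJ1-4. The median was 15.0 UMIs for either TRB, and the UMI ratio ran from 0.458 to 0.955. Each cell had 1 TRA, but 3 different TRA occurred, the commonest (TRAV5N-4 TRAJ44) in 8 of the 13 cells. This was 1 of the 2 recurring pairs whose cells did not all share a TRA.

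In Tet2KO NOD 1, the pair of TRBV13-1 TRBJ1-1 chains printed above was found in 7 cells, and a pair of TRBV3 TRBJ2-7 with TRBV12-2+TRBV13-2 TRBJ2-7 was found in another 7. All cells of the first shared a TRAV3-1 TRAJ57 chain and all cells of the other a TRAV5-4 TRAJ57 chain. The UMI ratios ran from 0.462 to 0.857 and from 0.427 to 0.909. None of these 4 TRB was found alone in another cell. The first of these pairs shows that 2 TRB with the same V and J can differ in CDR3: one is 36 and the other 30 bases long.

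The 26-cell pair of NOD 1 joined TRBV15 TRBJ2-7 to TRBV31 TRBJ2-2. Trbv31, the segment behind TRBV31, lies at chr6:41557691-41558452 on the minus strand in GRCm38, downstream of the J segments and opposite to them (Trbj2-7 is at chr6:41543810-41543856 on the plus strand), and joins by inversion. All 26 cells had a single TRA, the same TRAV10D TRAJ44 chain, and TRBV15 was the top TRB in all 26, with a median of 31.0 UMIs against 12.0 for TRBV31. The ratio ran from 0.208 to 0.800. The TRBV31 chain was never found alone and the TRBV15 chain was alone in 2 cells, neither of which had that TRA.

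Another 10 cells of NOD 1 joined TRBV1 TRBJ2-7 to TRBV20 TRBJ2-7 with 1 TRAV5-4 TRAJ53 chain in all 10. The TRBV1 chain was alone in 2 cells, both with that TRA, and the TRBV20 chain in none. The most frequent pair of NOD 2, TRBV12-2+TRBV13-2 TRBJ2-7 with TRBV2 TRBJ2-5, had the same form. It was found in 5 cells that shared a TRAV7D-4 TRAJ23 chain. Its first TRB was alone in 4 cells, 3 of which had a TRA, the same one in all 3, and its TRBV2 chain was alone in none.

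In Tet2KO NOD 2 the most frequent pair, TRBV31 TRBJ2-3 with TRBV5 TRBJ2-5, was found in 3 cells. All 3 had the same 2 TRA, and the TRB had medians of 12 and 9 UMIs. With these 3 cells, the 3 recurring pairs of that library are too few for a share to be read from them.

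The 28-cell pair of NOD 1 was of the third kind. It joined TRBV3 TRBJ1-3 to TRBV3 TRBJ2-1, and each of them was also the only TRB of 30 other cells. All 28 cells had a single TRA, TRAV6D-6 TRAJ56. That TRA was in all 18 of the cells with TRBV3 TRBJ1-3 alone in which a TRA was read, and in 0 of the 28 such cells with TRBV3 TRBJ2-1 alone, 27 of which carried a TRAV14-3 chain instead. The cells with both TRB thus had the TRA of one group of single-TRB cells and not that of the other.

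A nonproductive TRB marked the same side. A contig of TRBV31 with TRBJ1-2, 1 CDR3 sequence throughout, was present in 26 of the 28 cells and in 24 of the 30 cells with TRBV3 TRBJ1-3 alone, but in 0 of the 30 with TRBV3 TRBJ2-1 alone. Under most barcodes of this pair 3 TRB rearrangements were therefore read, and whether all of them came from 1 cell was not tested. TRBV3 TRBJ1-3 was the top TRB in 23 of the 28, the median was 27.5 UMIs against 19.0, and the ratio ran from 0.0333 to 1.00 with a median of 0.734.

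**Figure D3:**
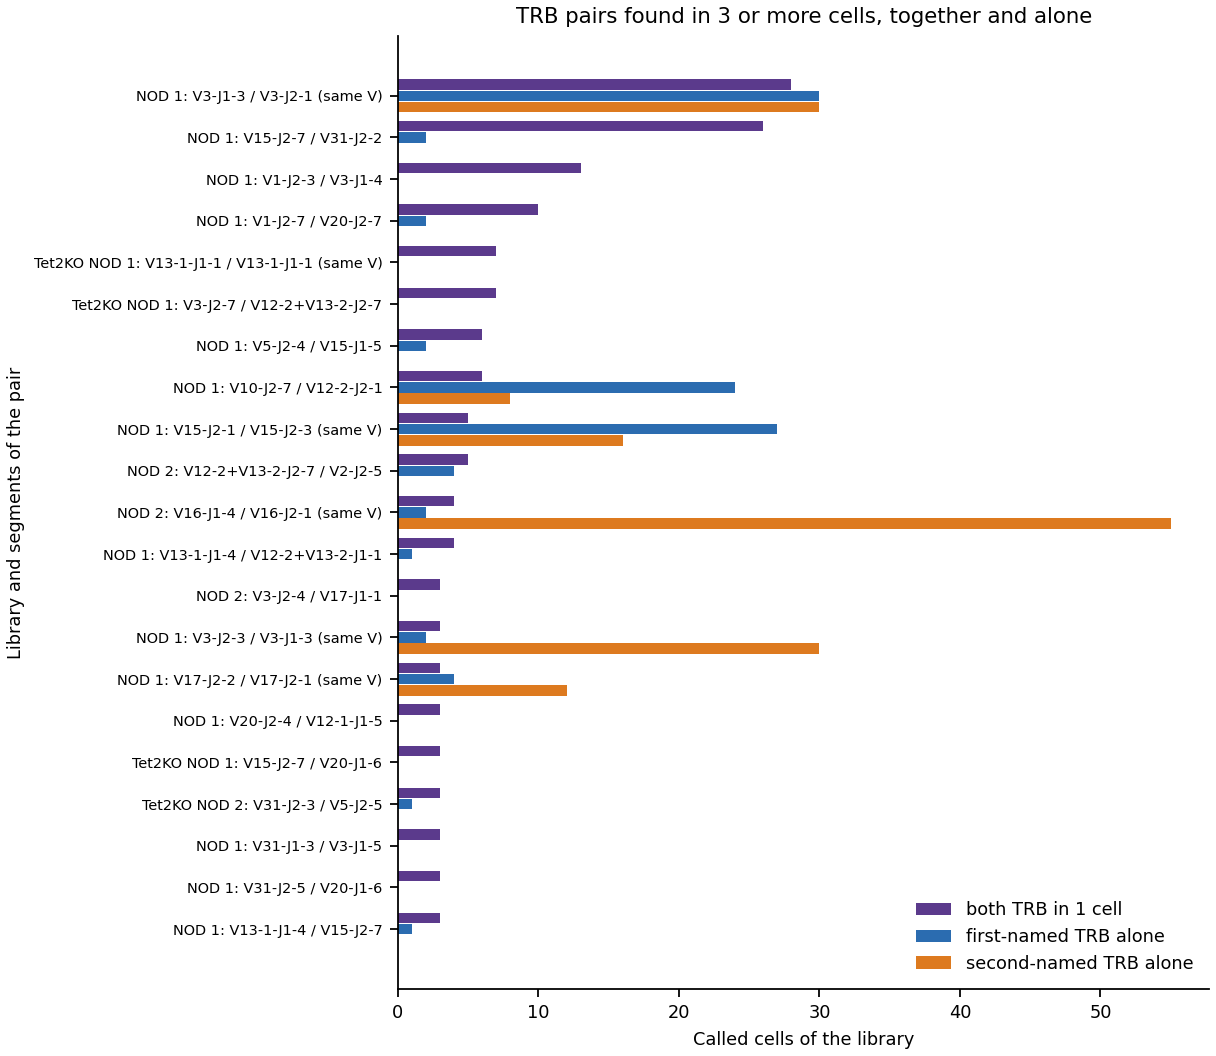
For the 21 TRB pairs found in 3 or more cells, bars give the called cells of the library that held both TRB (purple), the first-named TRB as their only TRB (blue) and the second-named TRB as their only TRB (orange), with V and J segments in the labels. The 28-cell pair has 30 cells with either chain alone, while the 26-cell and 13-cell pairs have 2 and 0 cells with the first chain alone and none with the other.

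Over all 652 cells, the top TRB was found alone in other cells of the library for 46.3% of cells in NOD 1, 24.4% in NOD 2, 13.6% in Tet2KO NOD 1 and 24.2% in Tet2KO NOD 2. The share for the second TRB was 34.1, 23.6, 15.2 and 31.8%. The differences were 12.2 and 0.787 percentage points in NOD and -1.52 and -7.58 points in Tet2KO NOD, with a mean of 0.978 ± 8.28 (SD, n = 4 libraries, exact sign-change p = 0.875, adjusted p = 0.875). It was -2.77 points without NOD 1 and 3.83 points without Tet2KO NOD 2.

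Cells whose pair was seen once offer another reading, because 51 of the 446 had both TRB alone in other cells. In 22 of these 51 the cell carried 2 TRA, 1 known from the cells with the first TRB alone and the other from the cells with the second, so that it held both chains of 2 receptors found elsewhere in the library. They were 11 of 32 such cells in NOD 1, 3 of 9 in NOD 2, 2 of 3 in Tet2KO NOD 1 and 6 of 7 in Tet2KO NOD 2. Another 1 had a TRA common to both groups, and 28 did not carry a TRA of each. Only cells with 2 TRA can hold both receptors in this way, and 29 of the 51 had 2. All 67 cells with a recurring pair and both TRB alone elsewhere had 1 TRA, so they could not hold a separate TRA of each group. Of the 67, 1 carried a TRA common to both groups, 1 lacked the TRA that its groups shared, and 65 did not carry a TRA of each.

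The V segments of the 2 TRB were often the same in 1 library. A pair used the same V segment in 52 of 274 distinct pairs of NOD 1 (19.0%), 9 of 112 of NOD 2 (8.04%), 2 of 48 of Tet2KO NOD 1 (4.17%) and 4 of 62 of Tet2KO NOD 2 (6.45%). A pair of TRB drawn from the distinct TRB of single-TRB cells of the same library would share their V segment in 6.93, 6.84, 6.77 and 6.71% of draws. NOD 1 stood above that value and the other libraries lay between 4.17 and 8.04%. Recurring pairs had the higher share in each library. They used the same V segment in 48.4, 33.3, 14.3 and 33.3%, on 31, 9, 7 and 3 recurring pairs, and in 20 of the 50 over all libraries. For pairs seen once the share was 15.2, 5.83, 2.44 and 5.08%. No cell had 2 TRB of the same V and J that differed by at most 1 CDR3 base.

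Same-V pairs differed from the rest in the second TRB. They were 98, 14, 8 and 5 cells of NOD 1, NOD 2, Tet2KO NOD 1 and Tet2KO NOD 2, 125 in all. In 69 of the 98 cells of NOD 1 (70.4%) and 5 of the 14 of NOD 2 (35.7%), the second TRB was the only TRB of 10 or more other cells of the library, a size used here for a large clone. That held for 3 of 295 (1.02%) and 2 of 113 (1.77%) cells with different V segments, and for 0 of 8 and 0 of 5 same-V cells of Tet2KO NOD 1 and 2, counts that would allow shares of up to 37.5 and 60.0% if cells were independent. Cells of 1 pair are not. The 69 cells of NOD 1 were 27 distinct pairs, with 28 cells in the largest, and the 5 of NOD 2 were 2 pairs. The same-V cells of Tet2KO NOD 1 and 2 were only 2 and 4 distinct pairs, 7 of the 8 cells of Tet2KO NOD 1 being the pair printed above.

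In both NOD libraries these second TRB mostly came without their usual TRA. Over the 4 libraries 82 cells had a second TRB from a large clone, 74 of them in a same-V pair. Of the 82, 9 carried a TRA of the cells that held that TRB alone. They were 7 of 72 in NOD 1, 0 of 7 in NOD 2, 0 of 1 in Tet2KO NOD 1 and 2 of 2 in Tet2KO NOD 2. In NOD 1, 28 of the 72 cells were 1 pair. By comparison, 76 of 113 cells did so where the second TRB was alone in some cells but in fewer than 10. A cell with 2 TRA has more room for a match. Such cells were 7 of the 82, against 181 of 570 cells whose second TRB was in no large clone. The median UMI ratio was 0.339 in same-V pairs of NOD 1 against 0.533 in its other pairs, and 0.195 against 0.549 in NOD 2. In Tet2KO NOD it went the other way, at 0.615 against 0.537 in Tet2KO NOD 1 and 0.643 against 0.556 in Tet2KO NOD 2, on 8 and 5 same-V cells.

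Some TRB were found beside several partners, and the examples here were chosen after their values were seen. TRBV16 TRBJ1-4 of NOD 1, printed above, was the only TRB of 157 cells, 136 of them with 1 TRAV5-4 chain. It was also the second TRB of 9 cells with 6 different top TRB, all of them TRBV16, at a median ratio of 0.191. Of the 9, 0 carried a TRA of the 157. TRBV13-1 TRBJ2-7 was alone in 26 cells of NOD 1 and second in 4 cells with 3 partners, all TRBV13-1, and 0 of the 4 carried its TRA. TRBV13-1 TRBJ1-4, alone in 1 cell of NOD 1, was in 5 cells with 3 partners, none of them TRBV13-1. Of the 5, 4 carried the TRA of that cell. Unlike the TRB above, it was the second TRB in only 1 of the 5, so the cases are not alike. The 5 cells include 3 of 1 recurring pair, with TRBV15 TRBJ2-7. TRB with 2 or more partners numbered 27 in NOD 1, 4 in NOD 2, 1 in Tet2KO NOD 1 and 4 in Tet2KO NOD 2. What produced the same-V pairs was not tested.

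**Figure D4:**
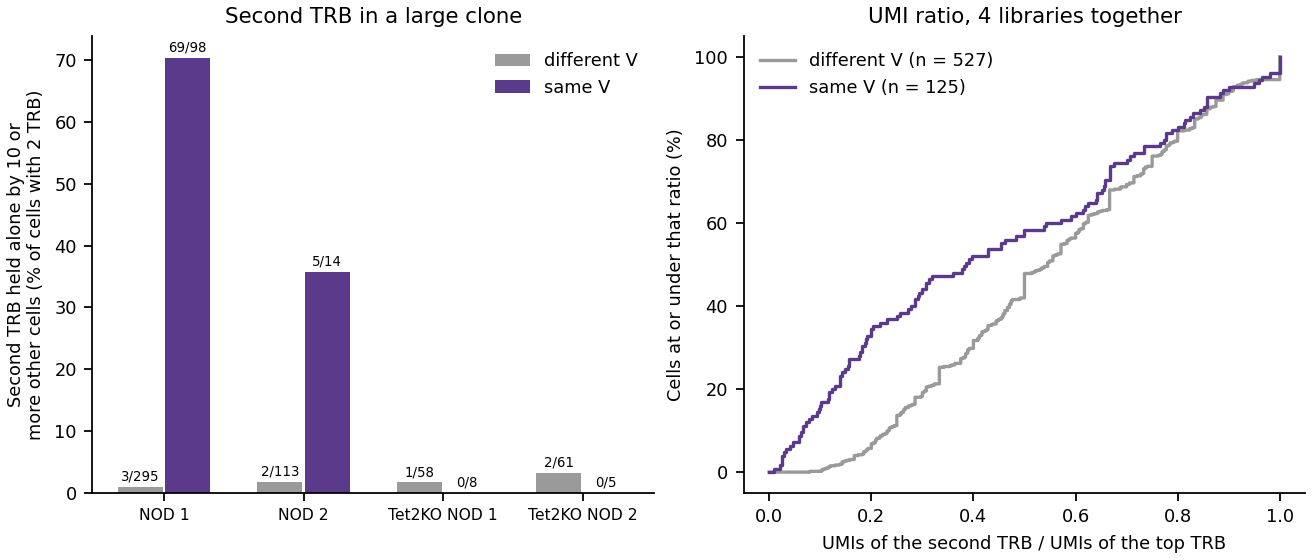
The left panel gives the percentage of cells with 2 TRB whose second TRB was the only TRB of 10 or more other cells of the library, for pairs with different V segments (grey) and with the same V segment (purple), with the cells behind each bar. The right panel gives the cumulative percentage of cells by the UMIs of the second TRB over those of the top TRB, over the 4 libraries together; same-V cells lie above the other curve at low ratios, but 98 of the 125 are from NOD 1, and in both Tet2KO NOD libraries their median ratio was the higher one.

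Rearrangements beyond the productive ones add a count the rule did not use. A nonproductive TRB (high-confidence, with a V and a J segment) was present in 66 of 393 cells with 2 TRB in NOD 1 (16.8%), 15 of 127 in NOD 2 (11.8%), 5 of 66 in Tet2KO NOD 1 (7.58%) and 11 of 66 in Tet2KO NOD 2 (16.7%). Cells with 1 TRB had one in 12.1, 12.7, 9.88 and 10.7%. The difference had no single direction, being 4.69, -0.892, -2.30 and 5.99 points, with a mean of 1.87 ± 4.08 (SD, n = 4 libraries, exact sign-change p = 0.5, adjusted p = 0.700). Over cells with different V segments its mean was -0.0244 points, and left-out libraries moved it from 0.501 points (without Tet2KO NOD 2) to 3.26 points (without Tet2KO NOD 1). Of the 66 cells in NOD 1, 26 belonged to the 28-cell pair.

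A barcode with 2 productive TRB and a nonproductive one shows at least 3 TRB rearrangements, and the same count can be made for TRA. At least 3 rearrangements of either locus, productive or not, were read in 25.4, 22.8, 13.6 and 30.3% of cells with 2 TRB, against 0.731, 0.665, 0.868 and 0.512% of cells with 1 TRB. A cell with 2 productive TRB needs only 1 more TRB to reach the count, so this gap is in part what the rule selects. For TRA alone, which the rule does not touch, at least 3 were read in 0 of the 206 cells with a recurring pair. Among cells with a pair seen once they were read in 42 of 243 in NOD 1 (17.3%), 19 of 103 in NOD 2 (18.4%), 5 of 41 in Tet2KO NOD 1 (12.2%) and 14 of 59 in Tet2KO NOD 2 (23.7%). Cells with 1 TRB had 0.461, 0.443, 0.760 and 0.384%. Among cells with a pair seen once, 38 of 101, 16 of 40, 4 of 13 and 13 of 25 with 2 productive TRA reached this count. Of those with 1 productive TRA, 4 of 142, 3 of 63, 1 of 28 and 1 of 34 did. The gap thus largely overlaps with the one in 2 TRA given above. The 0 rests on 150, 24, 25 and 7 cells with a recurring pair, so that of Tet2KO NOD 2 carries little weight. These cells were 50 pairs, and cells of 1 pair are not independent.

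Segment use was compared on distinct TRB, counting each TRB of a class once per library. There were 511, 219, 95 and 120 distinct TRB in cells with 2 TRB and 3965, 1820, 995 and 1071 in cells with 1. Of 30 segments tested with edgeR's quasi-likelihood test (18 TRBV and 12 TRBJ), 1 was called at an adjusted p under 0.05, which is 3.33% of those tested, and 5 had an unadjusted p under 0.05. The one called was TRBV15, at chr6:41141188-41141658 on the plus strand in GRCm38.

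TRBV15 made up 7.44, 8.22, 14.7 and 5.83% of distinct TRB in cells with 2 TRB of NOD 1, NOD 2, Tet2KO NOD 1 and Tet2KO NOD 2, and 4.44, 5.22, 6.43 and 4.86% in cells with 1. It was higher in all 4 libraries, with a mean of 9.06% ± 3.91 against 5.24% ± 0.859 (SD, n = 4) and a log2 fold change of 0.74 (SE 0.20, edgeR adjusted p = 0.0250). The call did not hold under most alternatives: TRBV15 passed in 5 of 14, and with the second TRB of each cell only its log2 fold change was -0.19 (edgeR adjusted p = 0.930). It was also lost when any 1 of the libraries was left out, with log2 fold changes of 0.65 to 0.80 and edgeR adjusted p-values of 0.0545 to 0.163.

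The other named segments did not pass. TRBV14 was higher in 4 of 4 libraries (mean 3.27 against 2.37%, edgeR adjusted p = 0.611), and TRBV5 (7.66 against 10.1%, edgeR adjusted p = 0.290) and TRBJ2-5 (9.83 against 12.5%, edgeR adjusted p = 0.290) were lower in 4 of 4. TRBV3 was higher in 3 of 4, at 3.91, 7.76, 10.5 and 9.17% against 4.34, 4.56, 5.33 and 4.95% (log2 fold change 0.43, SE 0.24, edgeR adjusted p = 0.400). It passed when every cell was counted, where the 28-cell pair counts toward it with both chains of every cell (log2 fold change 1.15, edgeR adjusted p = 6.3e-05).

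TRBV31 is the V segment that joins by inversion, so it can rearrange without removing the other V segments from the chromosome. It made up 5.48, 5.48, 2.11 and 4.17% of distinct TRB in cells with 2 TRB and 6.00, 6.59, 6.13 and 6.26% in cells with 1. It was lower in 4 of 4 libraries but did not pass (log2 fold change -0.32, SE 0.22, edgeR adjusted p = 0.611). It was part of 29 of 274, 12 of 112, 2 of 48 and 5 of 62 distinct pairs, and of 6 of the 50 recurring pairs.

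The commonest segments did not pass either. TRBV12-2+TRBV13-2 (a joined name, kept as deposited) had a mean of 10.1% against 11.6% and TRBV13-1 of 10.0% against 8.29%. TRBV19 had 7.19% against 8.50%, TRBJ2-7 22.1% against 20.2% and TRBJ2-3 10.5% against 11.2%. For these 5 the edgeR adjusted p lay between 0.704 and 0.741. The mean CDR3 length in amino acids was 14.0, 14.1, 13.9 and 14.0 in cells with 2 TRB and 14.0 in all 4 libraries in cells with 1. A pair with 1 J from either J cluster made up 43.1, 44.6, 43.8 and 41.9% of distinct pairs, and random draws from the single-TRB cells would give 44.9, 43.1, 43.3 and 44.2%.

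**Figure D5:**
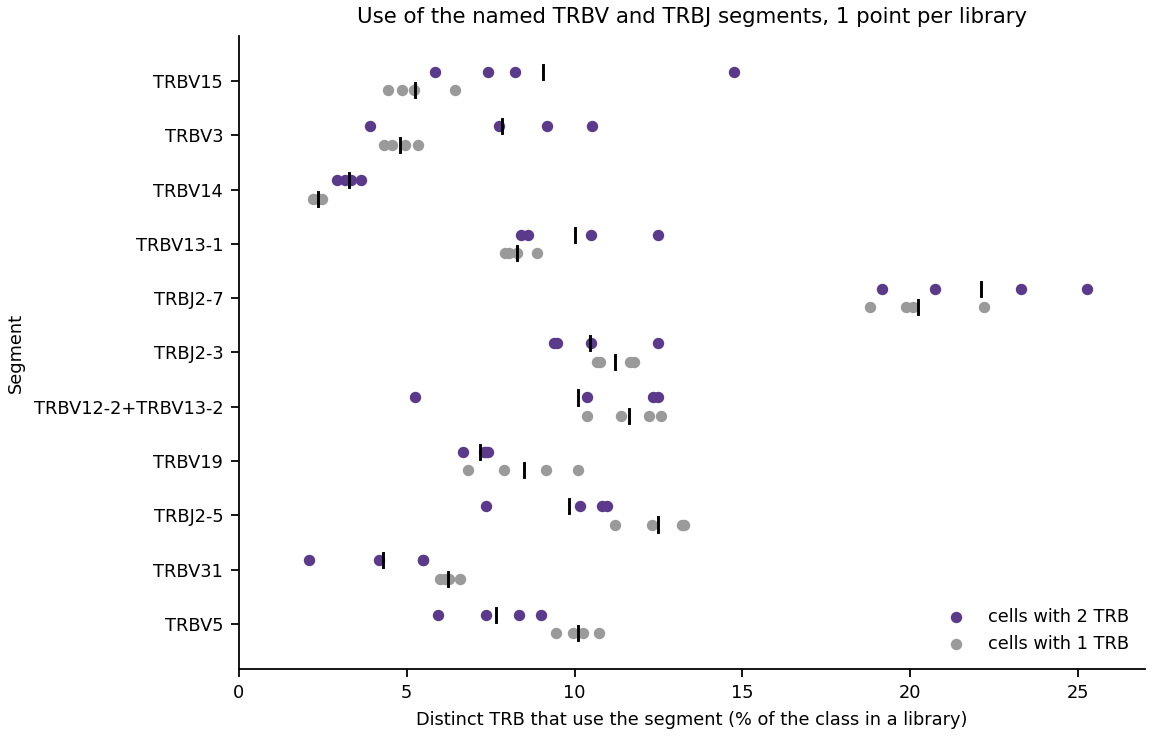
Points give, for each of the 11 named segments, the percentage of distinct TRB that use it in 1 library, for cells with 2 TRB (purple) and cells with 1 TRB (grey); black lines are means over the 4 libraries. TRBV15 is the segment that passed the test, and its highest point, 14.7%, is Tet2KO NOD 1.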

How the data were processed

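The deposited tables give, per assembled contig, reads and UMIs as whole-number counts, the contig length in bases (not used in a test), the segments, the CDR3 and flags, per the file headers. Contigs, cells and clonotypes were made with Cell Ranger 7.0.1 on GRCm38 (mm10), per the submitters' processing notes. Which V(D)J segment set was used is not stated there. Near-identical V segments are therefore uncertain, and NOD alleles may differ from the reference. No doublet caller was run, since doublets are one reading of the cells themselves. A TRB was identified by V, J and CDR3 nucleotides; "alone" means the only TRB of another called cell of the library.

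Shares and medians per library were compared with exact two-sided permutation tests. Genotypes were compared over all 6 assignments of libraries, and classes of cells over all 16 sign changes of the within-library differences. Segments with at least 10 distinct TRB in at least 4 of the 8 columns were tested with edgeR 4.0.16 (R 4.3.3, quasi-likelihood, library as a block, library size the number of distinct TRB), with DESeq2 1.42.0 as an alternative, both on these counts made from the deposited tables. The test was checked only on simulated counts with counting error and, apart from planted changes, the same segment shares in every library. Variation between libraries was thus not part of that check. SE values are derived from the fold change and F statistic. The set numbers are only labels, so genotypes were compared without pairing. Segment positions are from GENCODE M21.

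Named segments were those passing, the 6 TRBV and 3 TRBJ with the highest mean share in cells with 2 TRB, the 3 higher and 3 lower with the smallest p among those of 1 direction in all 4 libraries, and TRBV31. Named pairs were the 6 in most cells and the most frequent of each library. The cells and lists were chosen with earlier results of these data known. Alternatives were minimum UMIs, a minimum UMI ratio, shared barcodes left out, merged near-identical TRB, thinning, other definitions of a TRB, pairing, and each library left out.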

Additional observations from a re-analysis of the deposited data

Results flagged for a closer look

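One value stood out because the genotypes moved in opposite ways. The top TRB was found alone in other cells more often than the second TRB in both NOD libraries and less often in both Tet2KO NOD libraries, a gap of -11.0 percentage points (Tet2KO NOD minus NOD). The exact permutation test of that gap over the 4 libraries gave p = 0.333, the smallest it can give. The difference within NOD 1 was 12.2 points, and the gap was -5.33 points without that library. In NOD 2 the top TRB was found alone for 31 of 127 cells and the second for 30. In Tet2KO NOD 1 the counts were 9 and 10 of 66, so the signs in these libraries rest on very few cells. Among cells with a pair seen once, NOD 2 went the other way, at 18 against 22 of 103.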

How the results depend on the processing

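Each result was recomputed under 13 to 16 alternatives, of which those limited to pairs seen once, to different V segments, to cells with at least 1 TRA or to exactly 1 TRA were chosen after seeing the data. Only 2 TRB per cell occurred and no near-identical TRB of 1 V and J in a cell, so those alternatives gave the same values. The genotype differences under a replicate block by set were -1.40 points for the share of cells with 2 TRB, 0.0622 for the UMI ratio and -4.29 points for recurrence, each at exact p = 0.5, the smallest for 2 pairs. With no replicate block, the gap in 2 TRA (21.06 points) and the TRA UMI log2 ratio (0.51) reached exact permutation p = 0.0286, the smallest possible. Leaving out 1 library gave -2.08 to -0.727 points for the share of cells, 17.2 to 23.0 points for 2 TRA, 0.48 to 0.55 for the TRA UMI log2 ratio, 0.501 to 3.26 points for a nonproductive TRB and 0.0456 to 0.0789 for the UMI ratio. Recurrence ran from -17.9 to 9.35 points, with 5.34 points without NOD 1. The top minus second TRB seen alone ran from -2.77 to 3.83 points. It was -3.43 points for pairs seen once, and the nonproductive TRB gap was -0.0244 points for different V segments. Segments called numbered 0 in every leave-one-out fit, with TMM factors, DESeq2, no replicate block, only the second TRB or different V segments, and 2 with no filter or every cell counted. With only the second TRB, log2 fold changes turned to -0.19 for TRBV15, 0.0297 for TRBV5, -0.14 for TRBJ2-7 and 0.0298 for TRBJ2-3. The causes were not tested. Tet2KO NOD 1 and 2 hold 66 cells each, which limits what can be read of their pairs.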

Other observations

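TRB of cells with 2 TRB were also looked for in barcodes not called as cells, whether or not their contigs were flagged high-confidence. The second TRB was found there for 46.8, 26.8, 25.8 and 33.3% of cells (NOD 1, NOD 2, then Tet2KO NOD 1 and 2), and the TRB of single-TRB cells for 37.2, 35.5, 43.6 and 42.1%. For cells with a recurring pair the share was 84.0, 83.3, 52.0 and 57.1%, and for cells with a pair seen once 23.9, 13.6, 9.76 and 30.5%. A recurring pair is by definition in several called cells, and each cell of a large pair is counted. Part of this gap therefore follows from the definition, and no comparison matched for clone size was made.

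The TRB of a single-TRB cell was also alone in another cell for 45.9, 42.1, 56.5 and 42.1% of such cells, a measure of clonal sharing in each library. The share of cells with 2 TRB whose pair recurs, 38.2, 18.9, 37.9 and 10.6%, has another denominator and asks for both chains.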
